A study of Mus musculus with 6 samples.

Results

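Ras GTPase activating proteins (RasGAPs) were followed in the RNA of cultured mouse cerebellar granule neurons (CGNs) given GSK-126, an inhibitor of the H3K27 methyltransferase EZH2, or its solvent DMSO. The 8 genes described here are Rasal1, Rasa2, Rasa3, Rasa4, Rasa1, Nf1, Dab2ip and Rasal2, out of 55341 genes listed. They were selected by name with their values between GSK-126 and DMSO already known, and Rasal1 leads them because of its lower level with the drug. All values of these 8 genes between the groups are therefore a description, with no test. All 8 passed the filter on low counts, which left 16729 genes for the fit. Rasal1 was above the filter's level of 0.977 CPM, a count scaled to a common library total, in all 3 DMSO libraries and in 2 of the 3 GSK-126 libraries, and the other 7 genes were above it in every library.

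The series holds 3 libraries per group, numbered 1 to 3 in both. Granule neuron progenitors of CD1-IGS mice at P6-P8 were isolated on a Percoll gradient, and all cultures received AraC at DIV2 against dividing non-neuronal cells. A biological replicate was CGNs from the pooled cerebella of litters, so that no value belongs to 1 animal. The drug or DMSO was added at DIV3 and RNA was taken at DIV5 according to the study's text, while the labels give DIV3 and cerebellum. Libraries with the same number deviated together from their group means, so each number was treated as a pair, and fits with the pair as a block are given beside those without it.

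Ras proteins are small GTPases that pass signals from receptors to kinases while they hold GTP. Guanine nucleotide exchange factors load them with GTP, and RasGAPs speed up its hydrolysis, which returns Ras to its inactive state. RasGAPs insert an arginine, the arginine finger, into the catalytic site of Ras. In neurons Ras signalling is known for its part in survival, growth of processes and synaptic plasticity.

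This arginine finger is shared by the 8 genes, which were chosen by name as RasGAPs, so its presence is no separate evidence for the group. It was located by searching each translated coding sequence for a leucine or isoleucine, a phenylalanine and an arginine, 2 residues of any kind, a threonine or serine, and a leucine or isoleucine, a pattern widened until every gene of the group had a match. Each of the 8 proteins, which are 799 to 2841 residues long, then held exactly 1 match. The 15 codons around it, in the GRCm38 genome with GENCODE M21 transcripts, are shown 5′ to 3′ on the coding strand to compare the genes at the site that defines their activity, and capitals mark the codon of the arginine.
Rasal1 (chr5:120664451-120664495, plus strand, exon 12 of 22): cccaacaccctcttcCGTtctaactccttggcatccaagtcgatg
Rasa4 (chr5:136101630-136101674, plus strand, exon 11 of 21): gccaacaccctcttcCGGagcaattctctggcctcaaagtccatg
Rasa3 (chr8:13586940-13586984, minus strand, exon 12 of 24): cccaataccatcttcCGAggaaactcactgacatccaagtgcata
Rasa2 (chr9:96569757-96569801, minus strand, exon 12 of 24): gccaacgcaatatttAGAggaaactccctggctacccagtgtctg
Rasa1 (chr13:85225575-85225619, minus strand, exon 18 of 25): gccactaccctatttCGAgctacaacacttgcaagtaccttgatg
Nf1 (chr11:79453905-79453949, plus strand, exon 28 of 58): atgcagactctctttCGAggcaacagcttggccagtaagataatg
Dab2ip (chr2:35712917-35712961, plus strand, exon 5 of 14): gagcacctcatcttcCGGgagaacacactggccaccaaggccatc
Rasal2 (chr1:157174192-157174236, minus strand, exon 9 of 18): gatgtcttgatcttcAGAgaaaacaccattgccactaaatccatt

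Over these 45 bases, the 28 pairs of genes were 44.4% to 75.6% identical, with a median of 55.6%. Rasal1 was nearest to Rasa4, at 75.6%, and to Rasa3, at 73.3%. Rasal1 and Rasa4 encode RasGAPs with C2 domains that respond to calcium, and Rasa2 and Rasa3 encode the other members of the same GAP1 family. Dab2ip and Rasal2, both of the SynGAP family, were 66.7% identical. The pairs of Rasa1 with Dab2ip and of Rasa1 with Rasal2 had the lowest share, 44.4%.

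In the series as a whole, gene totals were 7407189 to 13092763 counts per library. Replicate 2 of both groups stood apart, with the highest summed level of 11 granule neuron markers in its group (7852 CPM under DMSO and 6007 CPM with GSK-126, against 4767 and 5505 CPM in the other DMSO libraries and 3687 and 4192 CPM in the other GSK-126 libraries). It also had the lowest summed level of 7 astroglia markers, at 2569 and 2462 CPM against 4328 to 8127 CPM elsewhere. None of the markers of the other cell types tested was at 0 in all libraries. Of the 11 granule neuron markers, 8 were called lower with GSK-126 in the fit with the pair as a block (edgeR's quasi-likelihood test, adjusted p under 0.05). Among them were Slc17a7, a vesicular glutamate transporter, and Gabra6, a GABA-A receptor subunit. That fit called 5.09% of all genes tested lower, and the fit without the block called 0% in either direction. Ezh2, the drug's target, averaged 36.4 ± 6.94 CPM in the DMSO libraries and 33.5 ± 7.8 CPM in the GSK-126 libraries (SD, n = 3 each), which is a level of RNA and no measure of enzyme activity.

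Rasal1 was the gene of the group with the lowest level and the largest difference. Its gene (ENSMUSG00000029602.11) lies on chromosome 5 from 120648812 to 120679597 in GRCm38. It had 36, 88 and 32 counts in DMSO replicates 1, 2 and 3, or 4.14, 8.18 and 2.78 CPM. With GSK-126 it had 20, 11 and 7 counts, or 1.51, 1.18 and 0.933 CPM. Every GSK-126 library was below every DMSO library, and DMSO replicate 2 was the highest. The group means were 5.03 ± 2.81 CPM for DMSO against 1.21 ± 0.291 CPM for GSK-126 (SD, n = 3 each). The log2 fold change was −2.02 (standard error 0.48) without the block and −1.96 (standard error 0.39) with it, the latter a 3.89-fold lower level.

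The counts behind Rasal1 were few, and the precision of a single library was set by them. The 95% Poisson interval of DMSO replicate 3, the lowest of its group, was 1.9 to 3.92 CPM. It overlapped the intervals of all 3 GSK-126 libraries, which were 0.924 to 2.34, 0.59 to 2.11 and 0.375 to 1.92 CPM for replicates 1, 2 and 3. The interval of DMSO replicate 2, 6.56 to 10.1 CPM, lay above all of them. These intervals cover counting error only. Within the pairs, the log2 ratio of GSK-126 to DMSO was −1.45, −2.79 and −1.57, so all 3 pairs showed a lower level and pair 2 the largest difference. Leaving out pair 2 gave a blocked log2 fold change of −1.49, with Rasal1 not called in that fit. Leaving out any 1 library without the block gave values from −2.32 to −1.47.

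**Figure D1:**
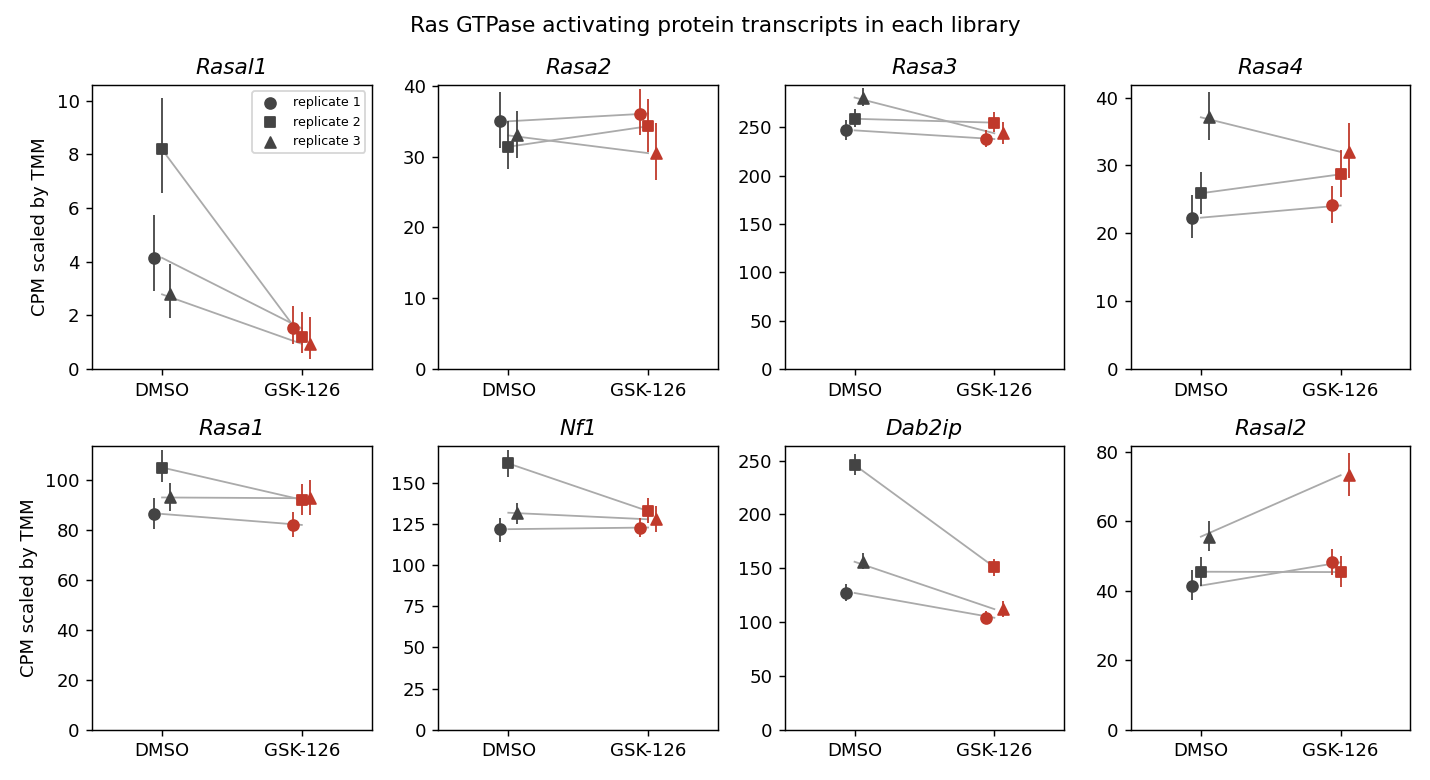
CPM scaled by TMM (y axis, linear from 0, a scale for each gene) of the 8 RasGAP genes in 3 DMSO and 3 GSK-126 libraries (x axis). Symbols mark the replicate number, vertical bars are 95% Poisson intervals of the counts, and grey lines join libraries of the same number. Rasal1 lies between 2.78 and 8.18 CPM with DMSO and between 0.933 and 1.51 CPM with GSK-126, while the groups overlap for the other 7 genes.

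Dab2ip, whose product is a RasGAP and a scaffold in several signalling pathways, was lower in every pair too, with the largest difference after Rasal1. Its gene (ENSMUSG00000026883.17) lies on chromosome 2 from 35558266 to 35730994, and 347 bp of its exons overlap Gm13446 on the opposite strand. It had 127, 246 and 156 CPM in DMSO replicates 1, 2 and 3 and 104, 151 and 112 CPM with GSK-126. The groups overlapped, since GSK-126 replicate 2 was above DMSO replicate 1, and replicate 2 was the highest library of both groups. The log2 ratios within pairs were −0.28, −0.71 and −0.48. Their SD was 0.21, and the fit gave −0.53 (standard error 0.26) without the block and −0.49 (standard error 0.08) with it. Leaving out any 1 pair gave blocked values from −0.58 to −0.38.

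The other GAP1 family genes differed less. Rasa3, whose product binds inositol phosphates and acts on both Ras and Rap, had 247, 259 and 281 CPM under DMSO and 238, 255 and 244 CPM with GSK-126. All 3 pairs were slightly lower, by log2 ratios of −0.05, −0.02 and −0.20, and the groups overlapped. Rasa4, the nearest to Rasal1 in the sequences above, had 22.3, 25.9 and 37.1 CPM under DMSO and 24.1, 28.7 and 32 CPM with GSK-126. Its replicate 3 was the highest library of both groups, and its blocked log2 fold change was 0.01 (standard error 0.13). Rasa2 had 35, 31.4 and 33 CPM under DMSO and 36.1, 34.3 and 30.5 CPM with GSK-126, with 2 pairs higher, 1 lower and a blocked log2 fold change of 0.02 (standard error 0.12). The directions of Rasa2 and Rasa4 changed with the scaling or with single libraries, so neither gene had a stable sign.

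Rasa1 and Nf1 encode p120 RasGAP, which carries SH2 domains that dock on tyrosine kinase receptors, and neurofibromin, the protein lost in neurofibromatosis type 1. Rasa1 had 86.4, 105 and 93 CPM under DMSO and 82, 92.1 and 92.7 CPM with GSK-126. Nf1 had 122, 162 and 132 CPM under DMSO and 123, 133 and 128 CPM with GSK-126. Both overlapped between the groups, and DMSO replicate 2 was the highest library of each. The blocked log2 fold changes were −0.09 for Rasa1 and −0.10 for Nf1, each with a standard error of 0.08. Without DMSO replicate 2 the value of Nf1 was 0.02.

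Rasal2, a SynGAP family gene like Dab2ip, had the opposite sign. It had 41.5, 45.5 and 55.6 CPM under DMSO and 48.2, 45.4 and 73.3 CPM with GSK-126. Replicate 3 was the highest library of both groups, pairs 1 and 3 were higher with GSK-126 by log2 ratios of 0.21 and 0.40, and pair 2 had a log2 ratio of −0.00. The blocked log2 fold change was 0.21 (standard error 0.10), and it was not called. Without GSK-126 replicate 3, the fit without the block gave −0.02. Exons of Rasal2, Rasa4 and Rasa1 overlap genes on the opposite strand by 244, 182 and 12 bp, and as the strand setting of the counting is not given, reads there cannot be told apart.

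**Figure D2:**
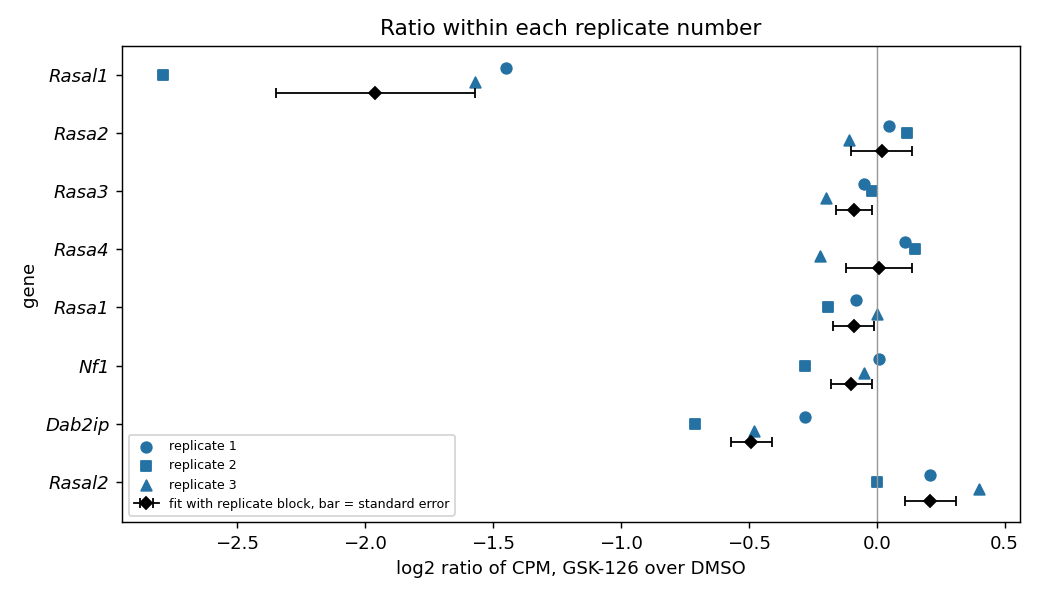
Log2 ratio of CPM, GSK-126 over DMSO (x axis), for each replicate number (blue symbols) and from the edgeR fit with the pair as a block (black diamonds, bars are the standard error), for the 8 genes (y axis). Rasal1 lies from −2.79 to −1.45 and Dab2ip from −0.71 to −0.28, and the 6 other genes lie from −0.28 to 0.40.

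Without the block, 0% of the 16729 genes were called (adjusted p under 0.05), and accordingly 0 of the 8 RasGAP genes. At an unadjusted p under 0.05 there were 294 higher and 371 lower genes, among them 1 of the 8, while DESeq2 without the block called 20 higher and 1 lower. With the block, 3.35% of all genes were called higher and 5.09% lower, and of the 8 genes 0 were called higher and 2 lower, Rasal1 and Dab2ip. The split of all calls moved with the scaling, from 560 higher and 852 lower with TMM factors to 727 and 698 with upper-quartile factors and 714 and 707 with total counts. The groups did not overlap for 4.72% of all genes with GSK-126 higher and for 4.72% with GSK-126 lower, and for 1 of the 8, Rasal1, which was lower. As the genes were selected on this comparison, nothing is read from these counts. The median log2 fold change of the 8 was −0.10 without the block and −0.09 with it, against −0.01 and −0.00572 for all genes tested. Rasal1 had the seventh lowest blocked value, with 0.0359% of the genes tested below it, and 5.42% were below Dab2ip. Nothing is read from these places either, as Rasal1 leads the group because of this difference. Its level was low too, with 14.9% of the genes tested at a lower mean log2 CPM.

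The lower levels of Rasal1 and Dab2ip stood beside a summed level of granule neuron markers that was lower in every pair, and in bulk RNA fewer cells of a type and less RNA per cell cannot be told apart. Set against each 1000 CPM of the 11 granule neuron markers, Rasal1 had 0.869, 1.04 and 0.504 CPM in the DMSO libraries and 0.41, 0.197 and 0.222 CPM in the GSK-126 libraries. Its groups did not overlap on this scale. As Rasal1 was selected for its lower level and the share of all genes on this scale was not computed, nothing is read from this. Dab2ip had 26.6, 31.4 and 28.4 CPM under DMSO and 28.3, 25.1 and 26.8 CPM with GSK-126, so its groups overlapped and its libraries lay close together. The ranges of the other 6 genes overlapped on this scale too. The marker sum rests most on Zic1, whose blocked log2 fold change was −0.31. Over the 11 markers this value ran from −1.95 for Slc17a7 to −0.07 for Pax6, against −1.96 for Rasal1. Slc17a7 had 57.4, 275 and 65.1 CPM under DMSO and 15.1, 68 and 17.7 CPM with GSK-126. Rasal1 was not set against single markers. Markers of other cell types differed as well. The summed level of 6 GABAergic interneuron markers was 144 to 169 CPM in the DMSO libraries and 119 to 142 CPM in the GSK-126 libraries, without overlap, and 2 of the 5 tested, Gad1 and Gad2, were called lower with the block. That of 5 Purkinje cell markers was higher without overlap, at 26.8 to 37.6 CPM against 40.5 to 61.3 CPM, with 1 of 4 tested, Slc1a6, called higher. Slc1a6 had 14.2, 21.7 and 22.8 CPM under DMSO and 31.2, 34.9 and 29.7 CPM with GSK-126. Pcp2 went the other way, with 2.07, 2.6 and 2.34 CPM against 1.29, 1.29 and 0.666 CPM. Pcp2, Calb1 and Car8 were not called, at blocked log2 fold changes of −1.10, 0.45 and 0.30, so these markers did not rise together. The sums of 7 microglia markers (187 to 407 and 267 to 501 CPM), 7 vascular or fibroblast markers (4961 to 6985 and 6294 to 7684 CPM), 8 oligodendrocyte lineage markers (441 to 776 and 513 to 793 CPM), 7 astroglia markers (2569 to 7806 and 2462 to 8127 CPM) and 7 progenitor or dividing cell markers (337 to 379 and 296 to 383 CPM) overlapped. Of these lists, 2 microglia markers (C1qa and C1qb), 2 vascular or fibroblast markers (Pdgfrb and Acta2), 1 oligodendrocyte lineage marker (Mbp) and 1 astroglia marker (S100b) were called higher, and 1 progenitor marker (Ptch1) lower. The part of any of these markers in the levels of Rasal1 and Dab2ip was not tested.

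**Figure D3:**
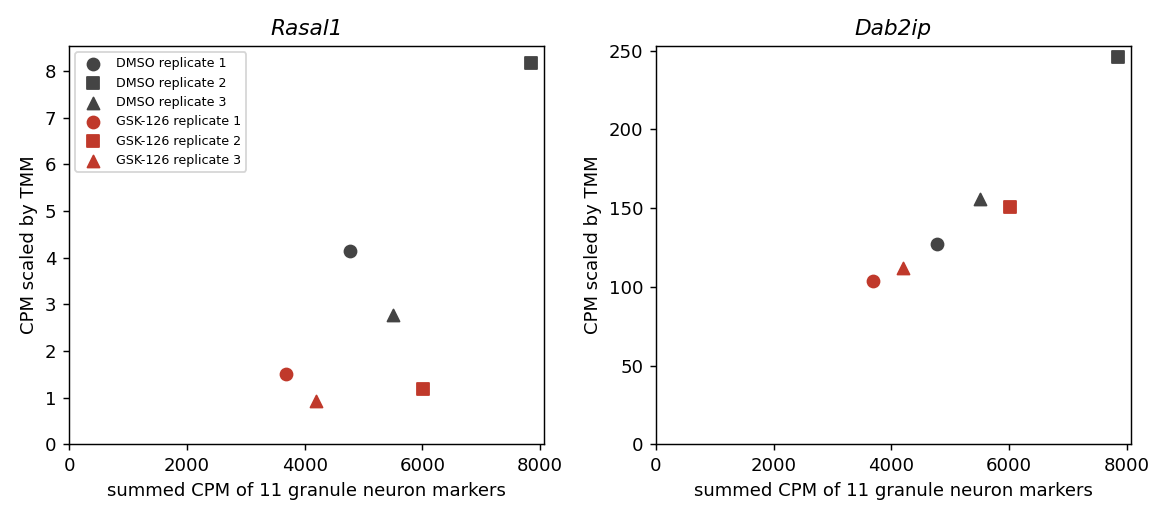
CPM scaled by TMM of Rasal1 and Dab2ip (y axes, linear from 0) against the summed CPM of 11 granule neuron markers (x axis) in the 6 libraries, with grey for DMSO, red for GSK-126 and symbols for the replicate number. Over marker sums from 3687 to 7852 CPM, Dab2ip lies between 104 and 246 CPM and Rasal1 between 0.933 and 8.18 CPM. The part of the markers in these levels was not tested.

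Levels of different genes were compared as CPM per kilobase of exon. With DMSO, Rasa3 was the highest at 51.6 ± 3.39 (SD, n = 3), followed by Dab2ip at 21.1 ± 7.44, Rasa1 at 13 ± 1.32 and Nf1 at 8.73 ± 1.32. The lower end held Rasa4 at 3.8 ± 1.03, Rasal2 at 3.46 ± 0.528, Rasa2 at 2.09 ± 0.112 and Rasal1 at 1.42 ± 0.795. Of the 7 neighbouring pairs in this order, 5 did not overlap between their DMSO libraries. Rasa4 and Rasal2 overlapped, as did Rasa2 and Rasal1, because DMSO replicate 2 of Rasal1 reached 2.31. With GSK-126, Rasal1 was at 0.342 ± 0.0821, below every other gene of the group in each library. The order of places 5 to 7 changed when the longest transcript or the coding length was used, while Rasa3 to Nf1 kept places 1 to 4 and Rasal1 the last.

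Rasa3 alone made up 43.9% to 52.4% of the summed level per kilobase of the 8 genes in the DMSO libraries and 50.7% to 53.4% in the GSK-126 libraries. Rasal1 made up 0.734% to 1.99% with DMSO and 0.281% to 0.488% with GSK-126. The summed level of all 8 was 105 ± 11.8 CPM per kilobase with DMSO and 93.4 ± 5.55 with GSK-126 (SD, n = 3), with overlapping ranges of 92.6 to 116 and 87.6 to 98.7. Rasal1, a small part of this sum, was the only member whose groups did not overlap, and it was selected for this difference. Of all genes tested, 4.72% did not overlap with GSK-126 lower and 4.72% with GSK-126 higher.

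**Figure D4:**
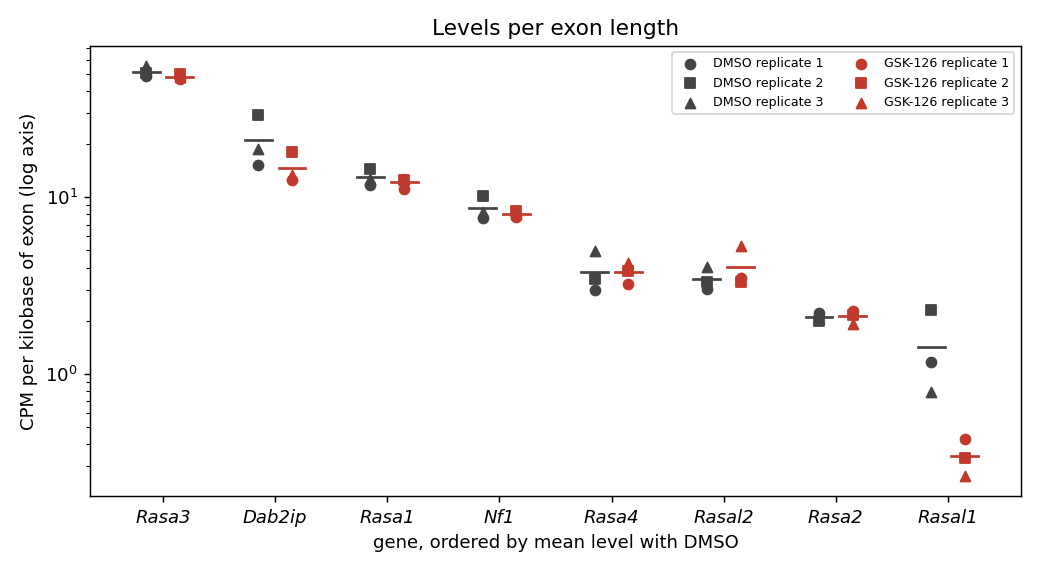
CPM per kilobase of exon (y axis, log scale) of the 8 genes (x axis, ordered by the DMSO mean) in each library, with grey for DMSO, red for GSK-126 and horizontal lines at the group means. Rasa3 is the highest at 51.6 with DMSO and Rasal1 the lowest at 1.42 with DMSO and 0.342 with GSK-126.

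Some of the genes shared patterns by replicate number as well. Replicate 3 was the highest of both groups for Rasa4 and Rasal2, replicate 2 for Dab2ip and Nf1, and replicate 1 for Rasa2. For Rasa3, Rasa1 and Rasal1 the number of the highest library differed between the groups. Rasal1 was highest in replicate 2 with DMSO and in replicate 1 with GSK-126. The coefficient of variation among DMSO libraries was 55.9% for Rasal1, 35.3% for Dab2ip and 27.2% for Rasa4, and 5.35% for Rasa2.

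Among 15214 genes with a mean log2 CPM over 1, likeness to Rasal1 was measured by Pearson's correlation of log2 CPM over the 6 libraries, which share 2 groups and 3 pairs. The 5 most alike were Dab1, an adaptor of reelin signalling, at 0.994, Mreg at 0.993, Gm5165 at 0.992, Tcf20 at 0.991 and Inpp5b, an inositol polyphosphate phosphatase, at 0.991. Dab1 had 33.9, 41.9 and 30.6 CPM under DMSO and 26, 22.5 and 21.2 CPM with GSK-126, the same order of libraries as Rasal1 over a smaller range. With the block Dab1 was called lower (adjusted p = 0.00514, edgeR), a call lost without pair 2, at −0.45 (adjusted p = 0.0856, edgeR). Dab1 was picked for its likeness to Rasal1 over these same libraries, so its call is no separate evidence. Mreg, Gm5165, Tcf20 and Inpp5b were not called, at blocked log2 fold changes of −0.52, −0.47, −0.17 and −0.23. Of the RasGAP genes, Dab2ip was the most like Rasal1 at 0.752, ranking 1197, followed by Nf1 at 0.623, and Rasal2 was the least like it at −0.553. These correlations describe 6 libraries, and genes with and without a called difference between the groups reached similar values.

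The rest of the Ras pathway was followed in 7 lists of 62 genes, of which 59 were tested. Rasgrf2, Rasgrp2 and Spry3 were not. Without the block 0 of the 59 were called and 4 had an unadjusted p under 0.05. With the block 8 were called lower and 1 higher (edgeR's quasi-likelihood test, Benjamini-Hochberg adjustment over all genes tested), beside the 5.09% and 3.35% of all genes. The genes called lower included exchange factors that activate Ras, GAPs of the related Rap proteins, an inhibitor of the cascade below Ras and kinases of that cascade.

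Among the exchange factors, which load Ras with GTP, 2 of 9 tested were called lower and 0 higher. Rasgrf1, a calcium-responsive exchange factor of neurons, had 19.9, 20.6 and 12.6 CPM under DMSO and 10.8, 11.4 and 7.59 CPM with GSK-126. Its groups did not overlap, and with the block it fell by 0.83 on the log2 scale (standard error 0.17, adjusted p = 0.00273, edgeR). Rasgrp1, which responds to diacylglycerol, had 2.3, 10.9 and 2.69 CPM under DMSO and 1.66, 2.69 and 0.4 CPM with GSK-126. Its value of −1.60 (standard error 0.40, adjusted p = 0.0137, edgeR) was −1.27 without pair 2 (adjusted p = 0.297, edgeR), where the call was lost. The median of the list was −0.15, against −0.00572 for all genes.

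Of the 7 Rap GAPs, 2 were called lower and 0 higher, with a list median of 0.00. Rap1gap, which turns off Rap1, had 36.6, 52.3 and 40.2 CPM under DMSO and 24.4, 42.4 and 23.7 CPM with GSK-126, a blocked log2 fold change of −0.54 (adjusted p = 0.00632, edgeR). Sipa1l2 fell by 0.30 on the log2 scale (adjusted p = 0.0143, edgeR), a call lost without pair 1, at −0.28 (adjusted p = 0.143, edgeR). Of 6 Sprouty and Spred inhibitors, 1 was called lower, and their median was −0.21. Spred2, a membrane inhibitor of RAF activation whose family binds neurofibromin, had 121, 180 and 134 CPM under DMSO and 102, 117 and 94.5 CPM with GSK-126. These groups did not overlap, and the difference with the block was −0.46 on the log2 scale (adjusted p = 0.00136, edgeR).

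In the cascade of RAF, MEK and ERK kinases, 3 of 13 genes were called lower, 0 higher, and the median was −0.15. Rps6ka1, a ribosomal S6 kinase activated by ERK, had 126, 210 and 151 CPM under DMSO and 84.7, 138 and 109 CPM with GSK-126, with a blocked log2 fold change of −0.55 (adjusted p = 7.87e-05, edgeR).

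No gene was called among the 5 other genes with a RasGAP domain or the 11 Ras and Rap GTPases. The smallest p of the former was that of Iqgap2, at a blocked log2 fold change of −0.32 (adjusted p = 0.147, edgeR), and of the latter that of Rras, at 0.37 (adjusted p = 0.104, edgeR). Their medians were 0.04 and 0.09. Of 10 genes commonly used as transcriptional output of ERK, 1 was called higher and 0 lower, with a median of 0.02. Epha4, an ephrin receptor, had 23.2, 19.8 and 28.5 CPM under DMSO and 37.4, 25.7 and 38.1 CPM with GSK-126, a blocked log2 fold change of 0.49 (adjusted p = 0.0163, edgeR), and the call was lost without pair 1, at 0.41 (adjusted p = 0.152, edgeR).

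**Figure D5:**
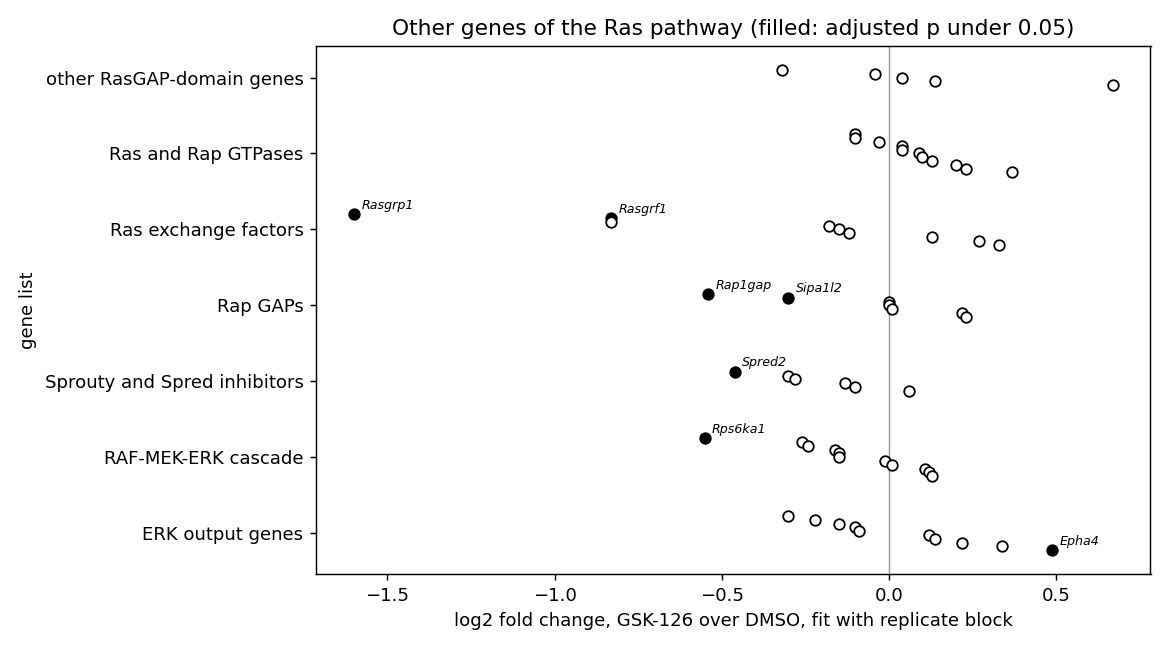
Log2 fold change of GSK-126 over DMSO from the edgeR fit with the pair as a block (x axis) for the tested genes of 7 Ras pathway lists (y axis), of which 2 are not plotted, each circle a gene in a list (Spry2 and Spry4 stand in 2 lists) and filled where the adjusted p was under 0.05. The filled circles are 6 lower genes, from Rasgrp1 at −1.60 to Sipa1l2 at −0.30, and 1 higher gene, Epha4 at 0.49.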

How the data were processed

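PolyA-enriched RNA of 3 DMSO and 3 GSK-126 cultures was sequenced by the study. Per the labels and methods, the authors trimmed reads (Trimmomatic 0.38), aligned them with STAR 2.7.2b, ran HTSeq over exons, and deposited the raw counts of each gene, one file per library. The strand setting is not given in the sources used here. Lines naming no gene, 58.7% to 60.7% of the reads listed, were left out, and 0 columns of other samples were present. Coordinates and lengths came from GENCODE M21 (GRCm38).

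Counts were fitted with edgeR 4.0.16 in R 4.3.3 (TMM factors, filterByExpr, quasi-likelihood test, Benjamini-Hochberg adjusted p under 0.05), without a block. CPM are scaled by TMM. DESeq2 1.42.0, other scalings, filters, left-out libraries and the replicate block were alternatives. Deviations of log2 CPM correlated at 0.561, 0.634 and 0.487 between libraries of the same number and at 0.00638 or less between others, so the numbers, given by the labels, pair the libraries. The biological coefficient of variation was 24% without the block and 9.74% with it. No library was a copy of another (chi-square per degree of freedom 9.01 or more). The p-values of the fit without the block rest on the spread between these cultures. Those of the fit with it rest on the spread left once the pairs are accounted for.

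The members and lists were chosen with earlier results of these data known. Named are the members, Ezh2, the 5 genes most like Rasal1, and per list the genes called with the block, at most 3 per direction by smallest p, or the gene with the smallest p where none was called. Cell type markers and the genes not tested were named outside this rule, after their values were seen. The results of 2 pathway genes are not reported here, though list counts include them.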

Additional observations from a re-analysis of the deposited data

How the results depend on the processing

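The replicate block made the largest difference to the calls. With it, 560 genes were called higher and 852 lower, with 2 of the 8 RasGAP genes and 9 pathway genes, against 0 in each without it. Leaving out pair 1, 2 or 3 gave 417, 337 and 558 higher, 671, 496 and 719 lower, 1 to 2 RasGAP genes and 7 to 10 pathway genes. In the same order, the block with upper-quartile factors gave 727, 698, 2 and 7, with total counts 714, 707, 2 and 9, with no filter 737, 874, 2 and 9, with at least 10 counts in every library 657, 803, 1 and 8, and with an adjusted p under 0.01 245, 475, 2 and 4. These 5 were chosen after seeing the data. DESeq2 with the block gave 372, 627, 1 and 7. Without the block, DESeq2 called 20 higher and 1 lower and no filter 9 and 1, with 0 RasGAP genes.

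Rasal1 kept its sign in all 18 alternatives and Dab2ip in all 20. Rasal1 was called in 6 of 7 edgeR fits with the block, had no adjusted p from DESeq2 with the block, and was removed by the minimum of 10 counts. Signs turned for genes near 0. Over the 6 fits that left out 1 library each, Rasa2 ranged from −0.02 to 0.09 (−0.01 for DMSO replicate 2, −0.02 for GSK-126 replicate 1), Rasa4 from −0.14 to 0.23 (0.23 for DMSO replicate 3, 0.10 for GSK-126 replicate 1), Nf1 from −0.18 to 0.02 (0.02 for DMSO replicate 2), Rasal2 from −0.02 to 0.36 (−0.02 for GSK-126 replicate 3) and Ezh2 from −0.29 to 0.05 (0.05 for DMSO replicate 1, 0.03 for GSK-126 replicate 3). Rasa2 with the block and pair 2 left out was −0.03. Rasa4 was 0.01 with the block, 0.02 with DESeq2 and the block, upper-quartile factors or total counts, and 0.00 (positive before rounding) with the minimum of 10 counts. With the block, Rasa4 was 0.13 when pair 3 was left out, 0.05 with upper-quartile factors or total counts, and 0.03 with no filter or the minimum of 10 counts. The causes were not tested. Rasal1 had 7 to 88 counts per library, which limits the precision of its level.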
